A study of Mus musculus with 6 samples.

Results

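CD4 and CD8 are the coreceptors that divide T cells into helper and cytotoxic lineages, and the 7 genes described here are the coreceptor genes Cd4, Cd8a and Cd8b1 together with the genes of the factors that control them, Zbtb7b, Runx1, Runx3 and Cbfb. They were picked by name from 33300 features of a mouse RNA-seq table, and all 7 were found. The table holds 6 libraries of polyadenylated RNA, 3 from control mice labelled wild type and 3 from mice of the genotype SLE1.2.3, a lupus-prone line that carries the intervals Sle1, Sle2 and Sle3. All mice were female and age-matched, and no age is given. From every mouse, naive CD4 T cells were stimulated on plates coated with antibodies to CD3 and CD28 for 5 days under Th17 conditions, with blocking antibodies to IL4 and IFNγ at 10 µg/mL each and the cytokines TGFβ1 at 1 ng/mL, IL-6 at 50 ng/mL, and IL-1β and IL-23 at 10 ng/mL each. Both groups therefore share the whole culture, and genotype is the only labelled difference. Each library is titled by a mouse number of its own, and whether control and SLE1.2.3 mice were littermates or were processed together is not given in the labels.

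The CD4 protein binds MHC class II and the CD8 protein binds MHC class I, and both bring the kinase LCK to the T cell receptor. CD8 is made as a pair of α chains, from Cd8a, or as an α and a β chain, the latter from Cd8b1. In thymocytes that become helper cells, ThPOK, the product of Zbtb7b, holds off the CD8 programme. In those that become cytotoxic cells, RUNX3 silences Cd4 and Zbtb7b and keeps Cd8 on. RUNX1 silences Cd4 at the earlier double-negative stage, and CBFβ is the partner that RUNX proteins need to bind DNA stably. Most γδ T cells carry neither coreceptor, while some carry CD8 α chains.

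RUNX proteins bind a short DNA core, and the letters of that core stand near start sites of their own genes and of Zbtb7b, which is why these stretches are shown. The sequences are from RefSeq, build GRCm38.p6, and 5 of the 7 genes matched a window of 250 bases before to 50 bases after an annotated start, 8 windows in all; Cd4 and Cd8b1 are named only. Capitals mark the letters ACCACA or, on the other strand, TGTGGT.
Runx1, distal start, minus strand, chr16:92826025-92826054: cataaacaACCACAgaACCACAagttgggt
Runx3, distal start, plus strand, chr4:135120503-135120532: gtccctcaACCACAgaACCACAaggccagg
Zbtb7b, proximal start, minus strand, chr3:89387743-89387772: ctggcgaggaacTGTGGTatgtgagtgggt
The Runx1 and Runx3 stretches share an unbroken run of 18 bases that holds the core in 2 copies. It begins 136 bases before the Runx3 start, and in Runx1 at base 27 after the annotated start. At least 1 match to ACCACA on either strand was held by 16.8% of the 32851 windows of this length, and 1.81% held 2 or more, so the letters are common and a match is no evidence of binding. The windows at the proximal Runx1 and Runx3 starts, the distal Zbtb7b start, Cbfb and Cd8a held none. The 250 bases before the Cd8a start, the member that differed most between the groups, are shown for reference; they also held no AGATAA (the letters read by GATA factors), CTTTGA (TCF and LEF factors) or GGGGGG on either strand, so nothing is in capitals.
Cd8a, plus strand, chr6:71373177-71373426: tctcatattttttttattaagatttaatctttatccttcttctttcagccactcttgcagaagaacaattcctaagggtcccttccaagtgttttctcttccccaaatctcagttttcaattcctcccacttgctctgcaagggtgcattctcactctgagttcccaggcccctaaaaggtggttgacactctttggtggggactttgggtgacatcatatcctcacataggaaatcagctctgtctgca
The shares of all windows with these other motifs were 11.2% for AGATAA, 16% for CTTTGA and 17.9% for GGGGGG. The expression table gives 1 value per gene, so it does not say which start was used.

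Levels are given in FPKM, fragments per kilobase of feature, scaled to the library's assigned fragments, which allows levels of different genes to be compared per length. Recovered assigned reads lay between 29.7 and 56.8 M (M for 1e+06) in the control libraries and between 61.7 and 83.5 M in those from SLE1.2.3 mice. Features of the biotype rRNA took 2.18% of the reads in control 3 and at most 0.0683% in the others. All 6 libraries held the T cell gene Cd3e, between 47.5 and 60.8 FPKM, and the Th17 receptor gene Il23r, between 16.7 and 42.4 FPKM. These genes do not tell CD4 T cells from other T cells, and the levels of Cd4 and of the receptor chain genes are given below. The SLE1.2.3 libraries differed widely among themselves: on the first principal component, which held 78.4% of the variance, they scored 4.25, 33.9 and 49.0, and the controls between -29.5 and -28.6.

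Cd4, the coreceptor that defines the cultured cells, was at 246, 264 and 253 FPKM in control libraries 1, 2 and 3. In SLE1.2.3 libraries 1, 2 and 3 it was at 257, 144 and 71.6 FPKM. SLE1.2.3 library 1 thus lay inside the control range, and libraries 2 and 3 held 56.6% and 28.1% of the control mean. The group levels were 255 ± 9.27 FPKM for control and 158 ± 93.6 FPKM for SLE1.2.3 (SD over 3 mice), and the log2 change was -0.87 ± 0.43 (SE; limma adjusted p = 0.20), and the groups overlapped. In RNA of a whole culture, fewer cells that carry a transcript and less of it per cell cannot be told apart, here and for every gene that follows.

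Cd8a, the α chain of CD8, was nearly silent in the controls, at 0.508, 0.218 and 0.388 FPKM, which rests on 93, 45 and 42 reads. In SLE1.2.3 cells it was at 1.34, 21.4 and 56.4 FPKM, from 406, 4791 and 15398 reads. All SLE1.2.3 libraries lay above all controls, by 3.6, 57.5 and 152 times the control mean. The log2 change was 3.40 ± 1.09 (SE; limma adjusted p = 0.081), which did not pass the threshold of 0.05, and its 95% interval ran from 0.76 to 6.04. Its control levels alone would not have passed the filter on low values (a mean of at least 1 FPKM): Cd8a could be tested because it was high in the SLE1.2.3 libraries.

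Cd8b1, the β chain of CD8, was already measurable in the controls, at 5.09, 4.71 and 4.26 FPKM and 380, 397 and 188 reads. It was at 6.35, 28.6 and 53.9 FPKM over SLE1.2.3 libraries 1, 2 and 3. The groups did not overlap, but library 1 was only 1.35 times the control mean where libraries 2 and 3 were 6.1 and 11.5 times. The log2 change was 2.01 ± 0.68 (SE; limma adjusted p = 0.093; 95% interval 0.36 to 3.66), and it did not pass.

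**Figure D1:**
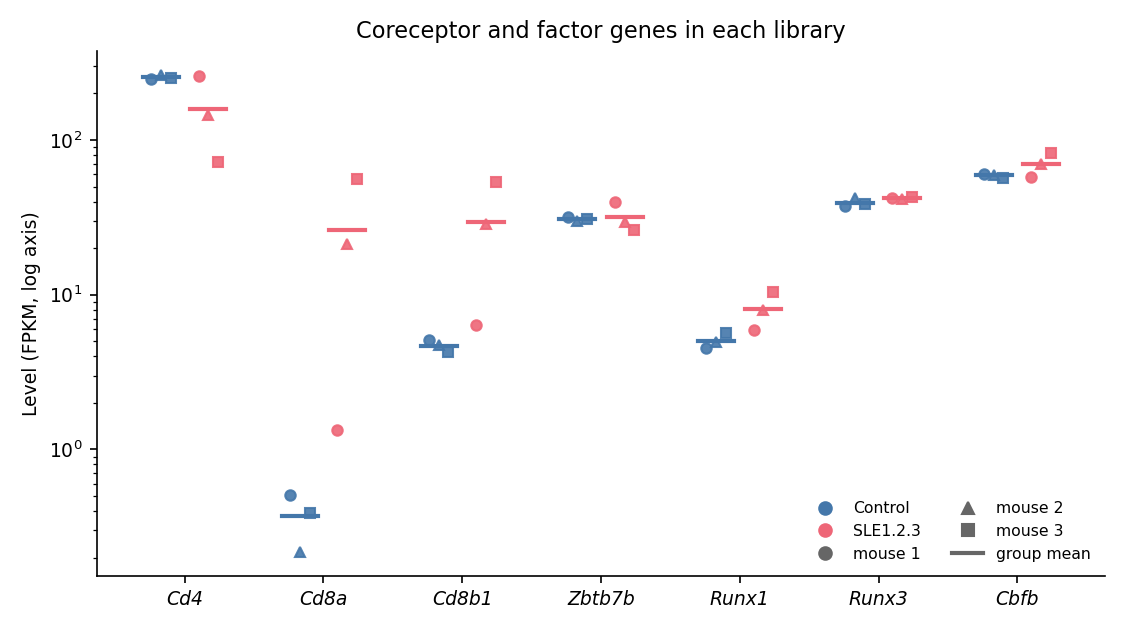
Level of each of the 7 genes in each library, in FPKM on a log axis. Blue is control and red SLE1.2.3, the marker shape gives the mouse number and the bar the group mean. The SLE1.2.3 points are spread widely for Cd4, Cd8a and Cd8b1, with Cd8a from 1.34 to 56.4 FPKM, and lie close together for Runx3, from 41.5 to 43.1 FPKM.

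The balance of the coreceptors differed from library to library. Cd8a made up 0.206%, 0.0824% and 0.153% of the summed Cd4 and Cd8a level in the controls, and 0.517%, 12.9% and 44% in SLE1.2.3 libraries 1, 2 and 3. In SLE1.2.3 library 3, Cd4 at 71.6 FPKM was thus not far above Cd8a at 56.4 FPKM. The proportion of both CD8 chains differed too. Cd8b1 was 10, 21.6 and 11 times the Cd8a level in the controls, and 4.75, 1.34 and 0.956 times in SLE1.2.3 cells, so in library 3 the chains were at nearly equal levels. Both ratios separated the groups without overlap. An exact two-sided permutation test over 3 against 3 libraries gave p = 0.10 for each, the smallest p it can give, and 0.20 after Benjamini-Hochberg adjustment over the 4 ratios examined. The control ratio of the CD8 chains rests on few Cd8a reads, and without control 2 the difference of the group means was -8.16 in place of -11.9.

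**Figure D2:**
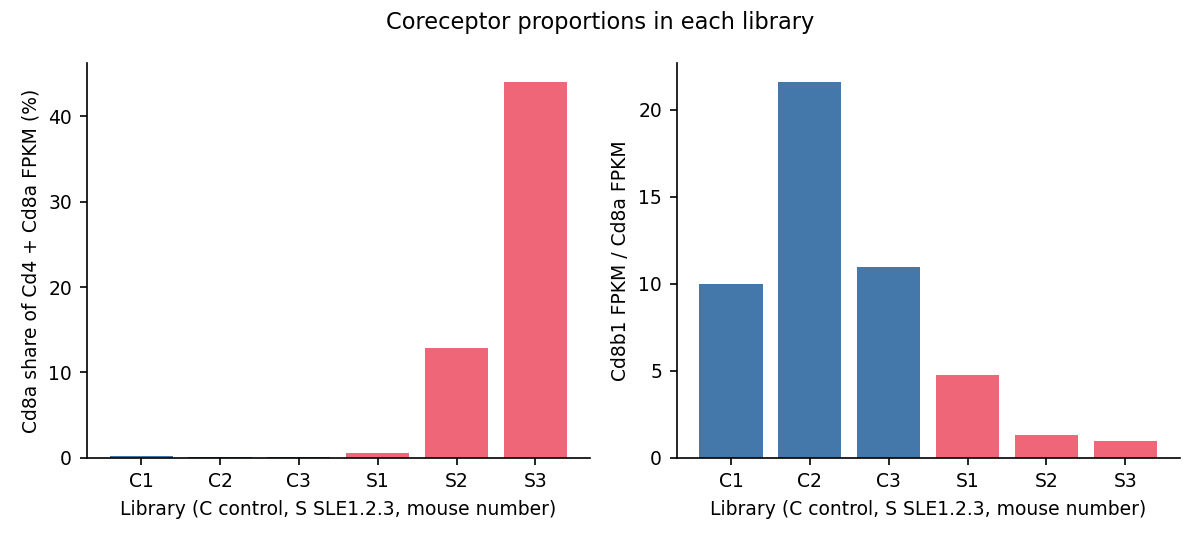
Bars give, per library, the Cd8a share of the summed Cd4 and Cd8a level in percent (left) and Cd8b1 as a multiple of Cd8a (right). C is control and S is SLE1.2.3, followed by the mouse number. The share is at most 0.206% in the controls and reaches 44% in SLE1.2.3 mouse 3, while the Cd8b1 multiple is 10 or more in the controls and 4.75 or less in SLE1.2.3 cells.

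Markers of γδ and innate-like T cells stood in the same order over the SLE1.2.3 libraries as the CD8 genes. The first principal component, with 78.4% of the variance, also ran in this order. How many of all features had a given order was not counted, so here and below a shared order links no gene to the coreceptors. All 9 examined passed the filter only through those libraries, so a rise was the only change that could be counted, and the 8 that passed the test support nothing by their number. Their summed level over all 9 was 3.1 to 3.87 FPKM in the controls and 59, 271 and 601 FPKM over SLE1.2.3 libraries 1, 2 and 3. Trdc, the constant region of the δ chain, was at 0.592 to 0.661 FPKM in the controls and at 4.96, 18.9 and 45.2 FPKM for SLE1.2.3, and so stood in the same order over the SLE1.2.3 libraries as Cd8a. The αβ receptor genes were at or above the control mean in SLE1.2.3 library 1 and below it in libraries 2 and 3. Trac, the α chain constant gene, was at 103%, 77.4% and 57.3% of it, and Trbc2, a β chain constant gene, at 108%, 93.3% and 75.8%, where Cd4 was at 101%, 56.6% and 28.1%. None of the 3 αβ constant genes passed (limma adjusted p = 0.24 for Trac and 0.53 for Trbc1). Trac did without SLE1.2.3 mouse 1 (adjusted p = 0.021), a fit in which 32.6% of all features passed. The part of these markers in the coreceptor levels was not tested.

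Markers of other cell types were low. The 5 NK and innate lymphoid markers summed to 1.4 FPKM at most in the controls and 2.74 FPKM at most in SLE1.2.3 cells, with Ncr1, the activating receptor of NK cells, at 0.032 FPKM at most. The 5 B cell markers summed to at most 1.8 and 3.02 FPKM in the respective groups. The 8 myeloid and dendritic markers summed to 7.33 to 9.05 FPKM and 7.88 to 11.4 FPKM. Of the 3 tested, 1 rose and 1 fell. Xcr1, a chemokine receptor of dendritic cells, rose from 0.0523 ± 0.00862 to 3.35 ± 2.23 FPKM (limma adjusted p = 0.035) and was tested only through the SLE1.2.3 libraries; it did not pass with the mouse number as a block (0.054), and without control 1, 2 or 3 or SLE1.2.3 mouse 2 its adjusted p was 0.11 to 0.14. Cd68, a macrophage lysosomal gene, fell from 3.48 ± 0.705 to 1.65 ± 0.311 FPKM (adjusted p = 0.026). The genes Flt3, Csf1r and Siglech were at most 0.336 FPKM in any library. The thymocyte gene Rag2 was listed at 0 in all 6 libraries and Rag1 was at most 0.003 FPKM. The part of these cells was not tested.

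**Figure D3:**
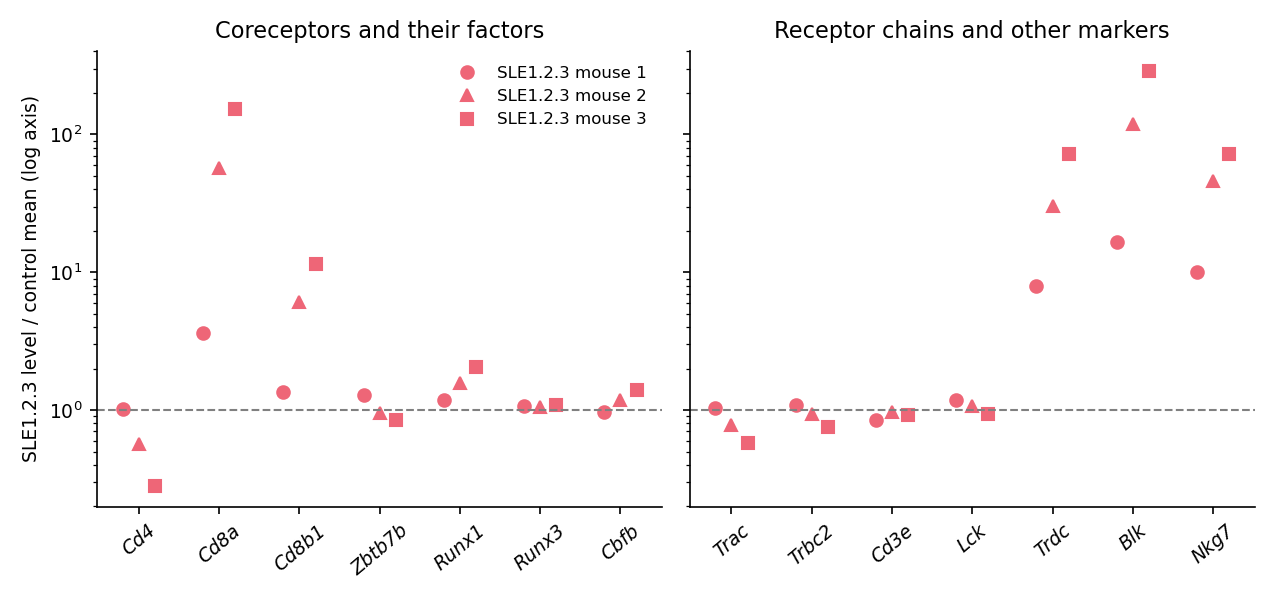
Level in each SLE1.2.3 library divided by the control mean, on a log axis, for the 7 genes (left) and for the αβ receptor genes Trac and Trbc2, Cd3e, Lck, the δ chain gene Trdc, Blk and Nkg7 (right). Circle, triangle and square are SLE1.2.3 mice 1, 2 and 3, and the dashed line marks the control mean. In mouse 3 Cd4 is at 0.281 times and Cd8a at 152 times the control mean, while Runx3, Cd3e and Lck are near the line.

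Among the factors, Zbtb7b, which encodes ThPOK, was at 31.6, 30 and 31 FPKM in the controls and at 39.6, 29.4 and 26.3 FPKM for SLE1.2.3. SLE1.2.3 library 1 was the highest of the 6 libraries and libraries 2 and 3 the lowest, so the groups overlapped and their means nearly coincided, at 30.9 ± 0.854 and 31.7 ± 6.95 FPKM (SD, n = 3). The log2 change of 0.02 ± 0.15 (SE; limma adjusted p = 0.94) had a 95% interval from -0.33 to 0.37, and its sign changed with the scaling, to -0.0038 by median ratio and -0.014 by quantiles. A loss of Zbtb7b RNA as deep as that of Cd4 in library 3 was not seen in any library, since the lowest held 85% of the control mean. Gm15417, a transcript on the other strand, overlaps Zbtb7b and was at most 2.22 FPKM, and the strand setting of the counting is not given in the sources used here.

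Runx3, the RUNX gene of the cytotoxic lineage, was well expressed in all 6 libraries. It was at 37.3, 41.9 and 38.7 FPKM in the controls and at 42.2, 41.5 and 43.1 FPKM over SLE1.2.3 libraries 1, 2 and 3. Of the 7 genes it had the smallest relative spread in the SLE1.2.3 group, 42.2 ± 0.765 FPKM against 39.3 ± 2.37 FPKM in control (SD, n = 3). The log2 change was 0.10 ± 0.07 (SE; limma adjusted p = 0.30), and its interval from -0.05 to 0.26 covers both no difference and a small one. Runx3 RNA was thus present at a level above that of Zbtb7b in control cells that held almost no Cd8a.

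Runx1 was the lowest of the factor genes, at 4.54, 4.92 and 5.67 FPKM in the controls, and was at 5.95, 7.93 and 10.4 FPKM for SLE1.2.3. Every SLE1.2.3 library lay above every control, the closest pair being SLE1.2.3 library 1 and control 3. The log2 change was 0.56 ± 0.18 (SE; limma adjusted p = 0.082; interval 0.12 to 1.01) and did not pass. Cbfb, the shared partner subunit, was at 60.6, 59.8 and 56.7 FPKM in the controls and at 57.3, 69.8 and 82.6 FPKM for SLE1.2.3, so that library 1 lay within the control range and libraries 2 and 3 above it. Its log2 change was 0.23 ± 0.13 (SE; limma adjusted p = 0.27), and it did not pass either.

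The proportions of the factors moved less than those of the coreceptors. Runx3 made up 89.2%, 89.5% and 87.2% of the summed Runx1 and Runx3 level in the controls and 87.6%, 84% and 80.5% in SLE1.2.3 libraries, where library 1 lay among the controls. Zbtb7b was 0.848, 0.714 and 0.802 times Runx3 in the controls and 0.938, 0.708 and 0.61 times in SLE1.2.3 cells, a spread that covered the control range. The exact two-sided permutation test gave p = 0.20 for the Runx3 share and p = 0.70 for Zbtb7b per Runx3, or 0.27 and 0.70 adjusted over the 4 ratios. Without SLE1.2.3 mouse 3 the small difference in Zbtb7b per Runx3 changed sign, from -0.036 to 0.035.

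By the limma fit over all 11378 features with a mean of at least 1 FPKM, 0 of the 7 genes passed an adjusted p of 0.05, where 15.2% of all features did, 9.65% higher and 5.58% lower. At an unadjusted p under 0.05 there were 3, namely Cd8a, Cd8b1 and Runx1, against 35.0% of all features (background), and limma voom on the recovered reads passed 0 of the 7, where 13.2% of all features passed. These same 3 were the genes whose groups did not overlap, all higher in SLE1.2.3 cells, where 23.9% of features were separated in that direction and 17.7% in the other. The count depended on SLE1.2.3 library 1. Without it, 5 of the 7 passed, where 32.6% of all features did: Cd4 fell by 1.32 on the log2 scale (adjusted p = 0.013), and Cd8a, Cd8b1, Runx1 and Cbfb rose by 4.71, 2.83, 0.74 and 0.36 (adjusted p = 0.00042, 0.00060, 0.0081 and 0.028). Leaving out any other single mouse passed 0 of the 7, where 2.75%, 2.26% and 2.39% of all features passed without control 1, 2 and 3, and 1.81% and 11.1% without SLE1.2.3 mouse 2 and 3. Leaving out both of these SLE1.2.3 mice also passed 0 (background 5.87%), as did the fits with no filter (2.66%) and with a mean of at least 5 FPKM (15.6%), with a pseudocount of 0.1 (15.9%), with median ratio or quantile scaling (15.0% and 15.8%), and with no variance trend, a robust variance or the mouse number as a block (14.8%, 14.9% and 8.26%). With all libraries weighted by their estimated quality, 5 of the 7 passed (Cd4, Cd8a, Cd8b1, Runx1 and Cbfb), where 61.1% of all features did. Rescaling the libraries to a common FPKM sum raised the median log2 change of all features from 0.01 to 0.11 and let 3 pass, Cd8a, Cd8b1 and Runx1 (adjusted p = 0.014, 0.020 and 0.037), where 11.8% of all features passed. That scaling also moved the share of calls that were higher from 63.4% to 73.8%, and quantile normalization moved it to 51.1%.

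**Figure D4:**
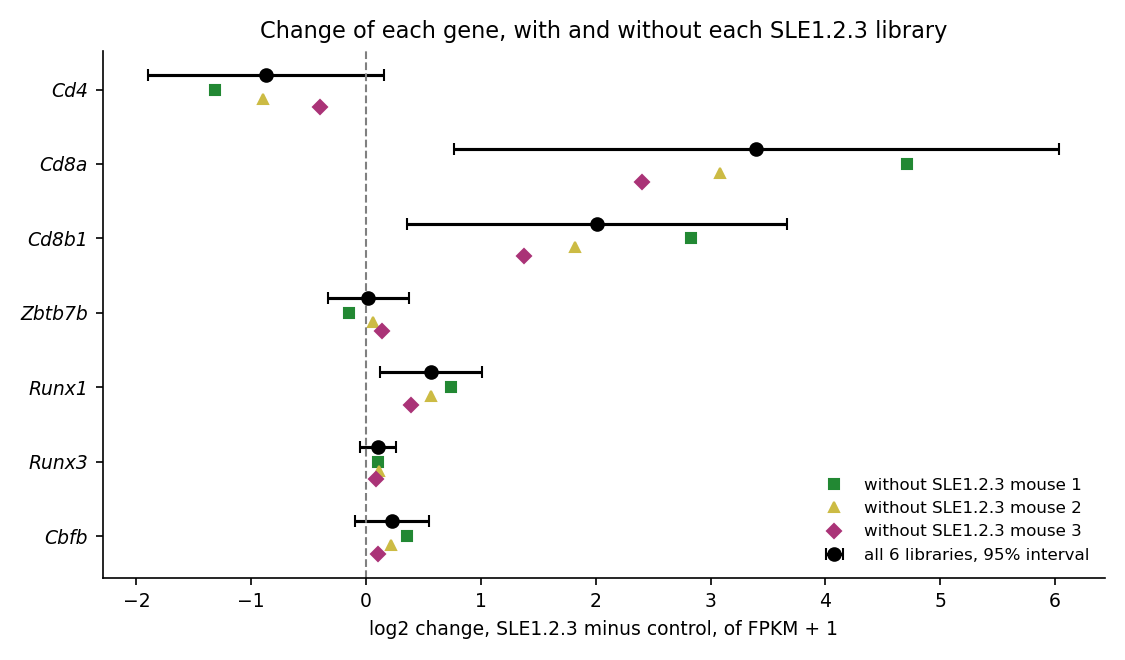
Log2 change of FPKM + 1, SLE1.2.3 minus control, for each of the 7 genes. Black points with bars are estimates and 95% intervals from all 6 libraries, and coloured points are estimates with 1 SLE1.2.3 mouse left out. The estimates for Cd4, Cd8a and Cd8b1 are farthest from 0 without mouse 1 (-1.32, 4.71 and 2.83) and nearest to it without mouse 3 (-0.40, 2.40 and 1.38).

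The order of levels differed between the groups. In the controls Cd4 was highest, followed by Cbfb, Runx3, Zbtb7b, Runx1, Cd8b1 and Cd8a, and only Runx1 and Cd8b1 had ranges that overlapped among neighbours in that order. In SLE1.2.3 cells the order by group mean was Cd4, Cbfb, Runx3, Zbtb7b, Cd8b1, Cd8a and Runx1. There only Cbfb was separated from Runx3, and Runx3 from Zbtb7b, since the ranges of Cd4 and of both CD8 chains were wide.

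The genes beside the coreceptor genes differed in whether their levels stood in the same order as the coreceptors. Cd4 (chromosome 6, 124864692 to 124888221, mm10, minus strand) has 9 other features within 50 kb, of which 6 were tested and 1 passed: the mitotic entry gene Cdca3 fell by 0.47 on the log2 scale (limma adjusted p = 0.039). Cdca3 did not pass without any 1 of the control mice (adjusted p = 0.084 to 0.12) or without SLE1.2.3 mouse 2 (0.15) or 3 (0.077). Nor did it pass with a common FPKM sum (0.28) or the mouse number as a block (0.085). Gpr162, an orphan receptor gene 709 bases from Cd4, was at 126%, 88.2% and 45.5% of the control mean in SLE1.2.3 libraries 1, 2 and 3, and Ptms, the parathymosin gene, at 116%, 78.2% and 63.5%. Both had the order of Cd4 over these libraries and did not pass (limma adjusted p = 0.61 and 0.44). P3h3, a collagen-modifying hydroxylase gene below the filter, had the same order, at 110%, 52.3% and 30.3%. Mlf2 and Usp5 lay between 88.2% and 108% of the control mean and did not pass (adjusted p = 0.44 and 0.70). Lag3, which lies next to Cd4 and encodes an inhibitory receptor that is related to CD4 and also binds MHC class II, was at 62.6, 76.7 and 66.4 FPKM in the controls and at 79.8, 74.4 and 80.9 FPKM for SLE1.2.3 (adjusted p = 0.19). In SLE1.2.3 library 3, where Cd4 was lowest, Lag3 was the highest of the 6 values. Cd8b1 (chromosome 6, 71322788 to 71337494, plus strand) and Cd8a (71373427 to 71379173, plus strand) stand 35933 bases apart. Rmnd5a, the protein-coding gene on the far side of Cd8a, had 22 and 21.7 FPKM as group means, and Krcc1, within 50 kb of Cd8b1, 24.6 and 29.0 FPKM (adjusted p = 0.87 and 0.056). The features P3h3, Gm44175, Gm44174 and Smyd1 were picked out after their values were seen. Gm44175, a long non-coding RNA between both CD8 genes and below the filter, was at 108%, 394% and 1824% of the control mean over SLE1.2.3 libraries 1, 2 and 3, at 0.76 FPKM at most. Gm44174, a long non-coding RNA that ends 143 bases before Cd8a on the same strand, had 0 reads in every control and 3, 24 and 112 reads in SLE1.2.3 libraries 1, 2 and 3 (limma adjusted p = 0.12). Smyd1, a methyltransferase gene known from muscle and lying 555 bases from Cd8b1 on the other strand, had 2, 7 and 2 reads in the controls and 41, 172 and 234 in SLE1.2.3 cells. These 3 features thus stood in the same order over the SLE1.2.3 libraries as the CD8 genes, at lower levels. Gm44174, with a feature length of 141 bases, was at 0.255, 2.76 and 10.6 FPKM over SLE1.2.3 libraries 1, 2 and 3, and Smyd1 was at most 0.685 FPKM.

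Genes with the most similar pattern were taken as those with the smallest root mean square difference from the member over the 6 libraries, on log2(FPKM + 1) relative to the control mean. Nearest to Cd8a were Trdv5, a variable segment of the δ chain (difference 0.32), Blk, a SRC family kinase of B cells and γδ T cells (0.37), and Trgj1, a joining segment of the γ chain (0.44). Like Cd8a, these genes passed the filter only through the SLE1.2.3 libraries and were near or at 0 in the controls. Their match to Cd8a therefore rests on the SLE1.2.3 libraries, where they were high, and links none of them to it. Trdv5 was at 1.64, 13.2 and 36.0 FPKM and Blk at 1.73, 12.4 and 30 FPKM over SLE1.2.3 libraries 1, 2 and 3, beside 1.34, 21.4 and 56.4 FPKM for Cd8a. Nearest to Cd4 were Tbxa2r, the thromboxane receptor gene (0.10), the tetraspanin gene Cd9 (0.11) and Ubald2 (0.13). Cd9 was at 15.2, 8.21 and 4.70 FPKM for SLE1.2.3 with a control mean of 16.4 FPKM, and so had nearly the proportions of Cd4. Nearest to Zbtb7b were Snx30, Ly75 and Irak2 (0.019, 0.042 and 0.053), all with their highest value in SLE1.2.3 library 1.

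The wider set of factors that act on the coreceptor genes had a share of calls near that of all features. Of 19 listed, 18 were tested, 1 rose and 1 fell, where 9.65% of all features rose and 5.58% fell, and the median log2 change was -0.02, where all features had 0.01. Myb, a factor of early T cell development, was at 8.31, 9.14 and 8.73 FPKM in the controls and 11.9, 13.3 and 16.1 FPKM for SLE1.2.3, a log2 change of 0.59 ± 0.11 (SE; limma adjusted p = 0.022). Ets1, a factor that takes part in CD8 lineage development, fell from 159 ± 17.2 to 114 ± 4.09 FPKM (adjusted p = 0.026). Ets1 did not pass with a common FPKM sum (adjusted p = 0.21), with the mouse number as a block (0.068) or without SLE1.2.3 mouse 3 (0.052). Lef1 and Satb1, which act in the thymus on coreceptor choice, were at 30.6% and 50.9% of the control mean in SLE1.2.3 library 3 and did not pass (adjusted p = 0.068 and 0.14). Patz1, which encodes MAZR, a repressor of the Cd8 genes, was at 10.7 ± 0.398 FPKM in control cells, at 8.4 ± 1.01 FPKM for SLE1.2.3, and did not pass (adjusted p = 0.062). Bcl11b and Ikzf1, which both act at the coreceptor genes, were within 10% of the control mean in all 3 SLE1.2.3 libraries. Lef1, Satb1, Patz1, Bcl11b and Ikzf1 were picked out after their values were seen.

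The third RUNX gene was the only call among the RUNX partners. Of 17 listed genes, 16 were tested, 1 rose and 0 fell, where 15.2% of all features passed, with a median log2 change of -0.02. Runx2, best known from bone and also found in T cells, was at 2.67, 3.15 and 2.63 FPKM in the controls and at 6.79, 10.3 and 13.7 FPKM over SLE1.2.3 libraries 1, 2 and 3, so that even the lowest SLE1.2.3 library held more than 2 times the highest control. Its log2 change was 1.52 ± 0.22 (SE; limma adjusted p = 0.013). In SLE1.2.3 cells Runx2 thus reached a level near that of Runx1, which was at 8.1 ± 2.23 FPKM beside 10.3 ± 3.44 FPKM for Runx2 (SD, n = 3). Runx2 did not pass without control 1, 2 or 3 (limma adjusted p = 0.058 to 0.064) or without SLE1.2.3 mouse 2 (0.069). The other 15 tested did not pass; the nearest, picked out after its values were seen, was the deacetylase gene Hdac3 (adjusted p = 0.058), at 82.4% to 89.6% of the control mean.

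Coreceptor signalling genes, the machinery the coreceptors act through, also had a share of calls near the background. Of 16 tested, 2 rose and 1 fell, where 15.2% of all features passed, with a median of 0.05. Lck, the kinase that CD4 and CD8 bind, was at 181, 187 and 182 FPKM in the controls and at 216, 197 and 172 FPKM for SLE1.2.3 (limma adjusted p = 0.58). It had the order of Cd4 over the SLE1.2.3 libraries, but library 3 held 93.7% of the control mean for Lck and 28.1% for Cd4. Ptpn22, a phosphatase that restrains receptor signalling, rose by 0.63 on the log2 scale, and Unc119, an adaptor that activates LCK and FYN, by 0.52 (limma adjusted p = 0.018 and 0.012).

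The cytotoxic and helper lists had median changes of opposite sign. Of 16 listed genes of CD8 and cytotoxic lymphocytes, 13 were tested, 6 of them only through the SLE1.2.3 libraries. For those 6 a rise was the only change that could be counted, so their part of the calls supports nothing. Of the 13 tested, 8 rose and 0 fell. That count mixes both kinds of gene, so it cannot be weighed against all features, of which 9.65% rose and 5.58% fell. The 4 called genes with the smallest adjusted p, Klrd1, Ccl5, Nkg7 and Gzmb, were all among the other 7, which could have been called in either direction. The median log2 change of the 13 was 2.51, as it was over the 7 that also pass the filter in the controls alone. Klrd1, which encodes CD94 of NK and CD8 T cells, rose from 6.21 ± 0.682 to 27.5 ± 6.71 FPKM, and Ccl5, a chemokine gene, from 2.2 ± 0.535 to 18.3 ± 9.08 FPKM (limma adjusted p = 0.0050 and 0.0093). Nkg7 and Gzmb, a granule protein and a granule protease, rose by 4.24 and 4.77 on the log2 scale. Itgae, which encodes CD103 and is a known RUNX3 target, was at most 0.492 FPKM in any control and at 1.4, 6.93 and 13 FPKM over SLE1.2.3 libraries 1, 2 and 3; it did not pass (adjusted p = 0.058). Eomes, the factor of CD8 memory and NK cells, stayed below the filter, at 0.365 FPKM or less in every library.

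Of 10 listed genes of CD4 helper cells, 9 were tested, 1 rose and 2 fell, against the same shares of all features, with a median of -0.67. Izumo1r, the folate receptor 4 gene of helper and regulatory cells, fell from 14.2 ± 0.482 FPKM to 6.97, 1.97 and 1.45 FPKM over SLE1.2.3 libraries 1 to 3, and the growth factor gene Il2 fell from 4.72 ± 1.31 to 1.65 ± 0.758 FPKM (limma adjusted p = 0.032 and 0.036). Bcl6, the factor of follicular helper cells, rose from 3.85 ± 0.476 to 7.58 ± 1.01 FPKM (adjusted p = 0.012). Tnfrsf4, Cd28 and Cd40lg, costimulatory genes, were at 13.2%, 37.9% and 49.7% of the control mean in SLE1.2.3 library 3 but at 85.7%, 102% and 108% in library 1, and did not pass (adjusted p = 0.12, 0.20 and 0.26). Icos, another costimulatory receptor gene, was at 93.1% to 104% of it in all 3. Among the defining Th17 genes, 5 of 6 rose (9.65% of all features did), with Il23r, Rora and Il17a at log2 changes of 1.09, 1.23 and 1.79. In SLE1.2.3 library 1 Il23r was at 200% of the control mean. There Cd4 was at 101%, Cd8b1 at 135%, Cd8a at 360% and Trdc at 791% of it. The part of the coreceptor and γδ genes in the Th17 levels was not tested. Itgae, Eomes, Tnfrsf4, Cd28, Cd40lg and Icos were picked out after their values were seen.

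**Figure D5:**
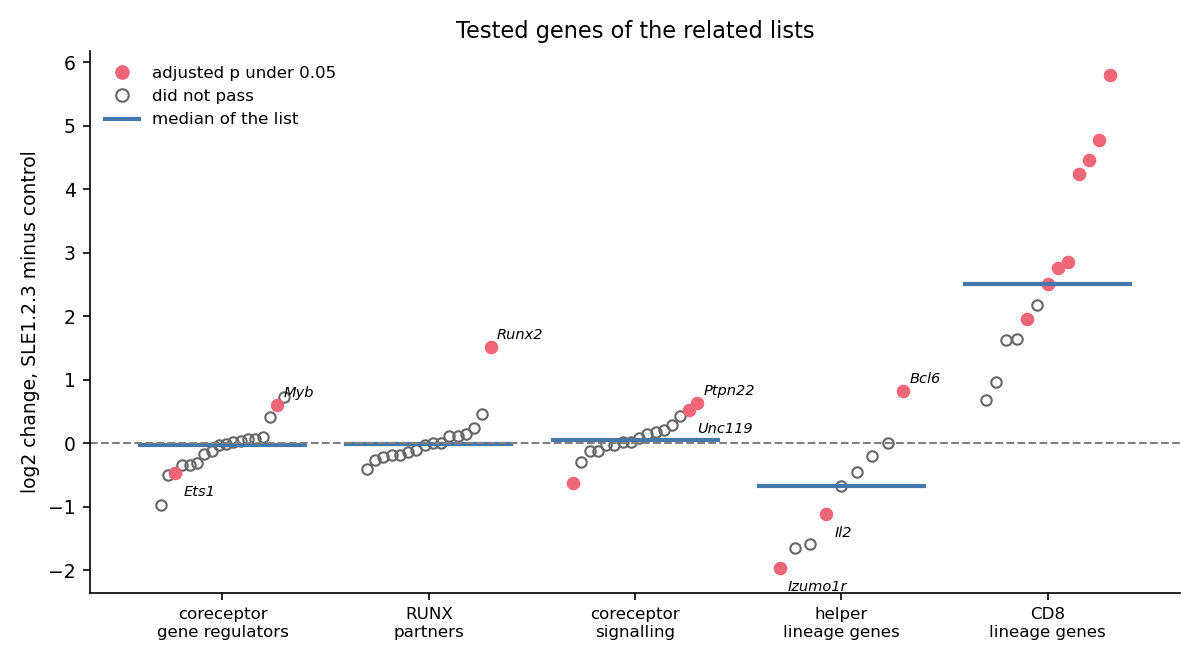
Log2 change, SLE1.2.3 minus control, of every tested gene of 5 lists. Red points passed an adjusted p of 0.05, open points did not, and the blue bar is the list's median. The medians of the regulator, RUNX partner and signalling lists lie between -0.02 and 0.05, that of the helper list at -0.67 and that of the CD8 list at 2.51.

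These list counts rested on having all libraries. Without control mouse 1, 2 or 3 or without SLE1.2.3 mouse 2, the regulator, RUNX partner, signalling and helper lists had 0 or 1 called genes and the CD8 list 1 or 2, while calls over the whole table numbered 206 to 313. Without SLE1.2.3 mouse 1 the counts were 8, 4, 5 and 7, and 14 for the CD8 list, where 32.6% of all features passed. Without SLE1.2.3 mouse 3 the helper list had 1. Of the genes named in these lists, Klrd1, Il23r and Rora passed whichever mouse was left out.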

How the data were processed

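The authors deposited FPKM values per feature, with coordinates and feature length; in each column value times length in kb sums to about 1000000. Per the submitters' processing notes, FastQC 0.11.9, cutadapt 2.10, STAR 2.7.3a, featureCounts 2.0.0 and DESeq2 1.24.0 were used with build mm10, in no stated role; the sources used here give neither strand setting nor annotation release. The coordinates of all 7 genes equal those of GENCODE M21.

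Reads were recovered from the FPKM steps (100% of values under 30 reads whole within 0.15 of a read). Depth limits low values, and no libraries were identical. The 95% intervals are for the mean log2 change and draw on the spread between these mice. They assume the same variance in both groups, although the SD of Cd4 was 9.27 FPKM in control and 93.6 FPKM in SLE1.2.3.

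Features with a mean of at least 1 FPKM were fitted as log2(FPKM + 1), a scale that understates changes of low genes, with limma 3.58.1 in R 4.3.3 (variance trend, genotype as the only term), Benjamini-Hochberg adjusted over all features. The file holds no counts, so no count model was the main test. Tested on simulated data with 11378 genes for this comparison, the fit recovered 88 of 100 genes changed 2-fold and 98 of 100 changed 4-fold. Unchanged genes were 7% of the calls. The simulation gave all genes and both groups the same fixed spread, without the wide differences among the SLE1.2.3 libraries. It therefore does not say how often such changes are found in genes that vary like Cd4 or Cd8a.

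The 7 genes, the 12 lists (118 entries) and the rules were chosen with earlier results of these data known. Named genes are the 7; per list up to 4 called genes with the smallest adjusted p, or 2 where none passed; tested neighbours within 50 kb; and the 3 most similar genes. Predicted genes are not named unless stated. Alternatives were another pseudocount (0.1), other filters (none, 5 FPKM), 3 scalings, array weights, voom, no trend or a robust variance, a block on mouse number, and mice left out. Some genes that the lists count are not reported here by name.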

Additional observations from a re-analysis of the deposited data

How the results depend on the processing

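Over the 18 alternative fits, Cd8a, Cd8b1, Runx1 and Runx3 stayed higher in SLE1.2.3 cells wherever they were tested; Cd8a was not tested when both SLE1.2.3 mice 2 and 3 were dropped, since its mean fell below the filter. That fit has 1 SLE1.2.3 library, assumed to vary like the controls. In it Cd4 and Cbfb changed sign (0.016 and -0.040), as did Trac and Trbc1 (0.039 and 0.21), and Trbc1 ranged from -0.39 to 0.021 with 1 mouse left out. Zbtb7b changed sign by median ratio (-0.0038), by quantiles (-0.014), with array weights (-0.067), without control mouse 2 (-0.0032) and without SLE1.2.3 mouse 1 (-0.15). With array weights Cd4, Cd8a, Cd8b1, Runx1 and Cbfb passed, at log2 changes of -0.82, 4.03, 2.38, 0.57 and 0.24 (5 members called). With a common FPKM sum Cd8a, Cd8b1 and Runx1 passed, at 3.47, 2.11 and 0.67 (3 called). Leaving out 1 mouse gave ranges of -1.32 to -0.40 for Cd4, 2.40 to 4.71 for Cd8a, 1.38 to 2.83 for Cd8b1, -0.15 to 0.14 for Zbtb7b, 0.39 to 0.74 for Runx1, 0.07 to 0.15 for Runx3 and 0.10 to 0.36 for Cbfb, with 0 to 5 members called. The cause was not tested.

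Called genes over the whole table numbered 798 with no filter, 1129 with a mean of at least 5 FPKM, 6952 with array weights, 659 without SLE1.2.3 mice 2 and 3, and 206 to 3705 with 1 mouse left out, against 1733. With array weights the lists had 11 (regulators), 9 (RUNX partners), 9 (signalling), 13 (CD8) and 7 (helper) called, against 2, 1, 3, 8 and 3. With no filter the regulator, CD8 and helper lists had 0, 4 and 1; voom gave 4 for the CD8 list; a common FPKM sum, median ratio and quantiles each gave 2 for the RUNX partners. Without SLE1.2.3 mice 2 and 3 the regulators had 0 and the signalling list 1. With 1 mouse left out the ranges were 0 to 8, 0 to 4, 0 to 5, 1 to 14 and 0 to 7. Cd8b1 per Cd8a differed by -14 to -8.16 (by -4.84 in reads, which are not divided by length, in place of FPKM), the Cd8a share by 6.56 to 28.3, the Runx3 share by -6.37 to -2.83 and Zbtb7b per Runx3 by -0.13 to 0.035. For 28 other named genes, 385 values kept their direction and side of the threshold, and most others no longer passed.

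The mouse number as a replicate block gave 940 called genes and 0 of the 7. It left the counts of the regulator, RUNX partner, signalling, CD8 and helper lists as they were. Ets1, Xcr1 and Cdca3 lost their calls under it (limma adjusted p = 0.068, 0.054 and 0.085). The marker lists, of which 1 holds Xcr1, were not counted with the block. Same-numbered mice correlated in their deviations from the group means at -0.0040, 0.10 and 0.091, and not every library correlated best with its own number. With 3 libraries per group, correlations this weak cannot decide whether the numbers pair the mice. Depth limits Cd8a in the controls, with 42 to 93 reads.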

Other observations

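Dntt, which encodes the terminal transferase of developing lymphocytes, was lower in every SLE1.2.3 library than in every control although Rag1 and Rag2 were near or at 0. It was at 0.364, 0.592 and 0.264 FPKM in the controls and at 0.021, 0.007 and 0 FPKM over SLE1.2.3 libraries 1, 2 and 3. These values lie below the filter on low values, so no test was made, and Dntt was picked out after its values were seen.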
